A study of Mus musculus with 4 samples.

Results

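The 8 genes described here make, regulate and export cholesterol, and their mRNA was followed in J774.1 cells treated with proteasome inhibitors. They were chosen by name for their roles, with earlier results of these data known. *Hmgcs1*, *Idi1*, *Fdps* and *Sqle* encode enzymes of cholesterol synthesis, *Insig1* and *Srebf2* encode regulators of that synthesis, and *Abca1* and *Abcg1* encode transporters that carry cholesterol out of the cell. The arrays held probes for 20144 named mouse genes, and 9 of 39429 probes belonged to these 8 genes, with 2 probes for *Srebf2* and 1 for each other gene. J774.1 is an established mouse line with monocyte-macrophage properties. One culture received the solvent DMSO, and the others received MG132, a proteasome inhibitor, epoxomicin, an inhibitor of the 20S proteasome core, or ONX0914, an inhibitor of the β5 and β5i subunits. Each inhibitor was given at 1 μM for 4 hours, and RNA of each culture went on 1 array, so that 4 arrays on 1 slide make up the experiment. For the ONX0914 array, the treatment label reads ONX-0912, whereas the title reads ONX and the compound is given as ONX0914 in the protocol of the treatment and in the paper. All groups share the same cell line, and no group has a second array.

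Cells make cholesterol from acetyl-CoA through the mevalonate pathway, in which HMG-CoA synthase acts early and squalene epoxidase acts where the route turns to sterols. When sterols in the endoplasmic reticulum are low, the escort protein SCAP brings the membrane-bound precursor of SREBP-2 to the Golgi, where it is cut and releases a transcription factor for synthesis genes. INSIG-1 holds SCAP back when sterols are plentiful, and INSIG-1 itself is degraded by the proteasome. Macrophages, which take up much lipid, dispose of surplus cholesterol through ABCA1 and ABCG1, whose genes are induced by the oxysterol receptors called LXRs.

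The 250 bases that precede a RefSeq transcript start were on hand for 5 of the 8 genes, and for *Abca1* that start lies inside the gene, so that 93 of the 250 bases do too. Those of *Hmgcs1* and *Insig1* are shown because these genes had the largest differences among the 8, and those of *Srebf2* because it encodes the transcription factor of the pathway. Capitals mark the core of the classical sterol regulatory element (TCACCCCA), the NF-Y box (CCAAT, here read on the opposite strand as ATTGG) and the E-box (CACGTG). The stretches lie at chr13:119690101-119690350 (plus strand) for *Hmgcs1*, at chr5:28071162-28071411 (plus strand) for *Insig1* and at chr15:82147019-82147268 (plus strand) for *Srebf2* in GRCm38.p6, and all end right before the gene. The sequences are those of RefSeq, read 5′ to 3′.
Hmgcs1: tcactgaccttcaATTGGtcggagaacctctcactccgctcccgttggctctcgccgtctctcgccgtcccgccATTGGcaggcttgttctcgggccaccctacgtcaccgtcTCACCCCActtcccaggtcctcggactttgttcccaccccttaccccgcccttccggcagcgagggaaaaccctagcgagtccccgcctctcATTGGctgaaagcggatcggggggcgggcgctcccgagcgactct
Insig1: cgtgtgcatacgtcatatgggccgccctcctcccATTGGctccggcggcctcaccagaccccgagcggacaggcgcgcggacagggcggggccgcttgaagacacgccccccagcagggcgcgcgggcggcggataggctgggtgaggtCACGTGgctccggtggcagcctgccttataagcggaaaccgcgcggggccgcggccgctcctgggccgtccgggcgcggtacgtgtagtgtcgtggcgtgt
Srebf2: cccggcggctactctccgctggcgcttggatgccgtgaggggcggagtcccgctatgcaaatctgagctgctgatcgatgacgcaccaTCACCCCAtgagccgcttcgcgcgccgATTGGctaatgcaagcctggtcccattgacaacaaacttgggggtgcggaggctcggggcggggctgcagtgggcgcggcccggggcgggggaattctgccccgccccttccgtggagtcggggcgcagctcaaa

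Motifs were searched on both strands over these 250 bases and the 50 bases after the start. The sterol element core was found at base -137 of *Hmgcs1* and at base -162 of *Srebf2*, where -1 is the base before the start, and in no other of the 5 stretches. Of 32851 mouse promoters of this length, 1.56% held these letters. The NF-Y box was in 4 of the 5 stretches, all but that of *Abca1*, against 37.4% of all promoters, and *Hmgcs1* held 4 copies. The E-box was in 2 of the 5, those of *Insig1* and *Abca1*, against 7.15%. All 5 held the GC box GGGCGG, which was in 35.7% of all promoters. The exact letters AGGTCA repeated after 4 bases, an LXR type of repeat, were in none of the 5 and in 0.0152% of all promoters. Repeats that differ from these letters at any base were not searched for. The absence of the exact letters therefore does not show that *Abca1* or another gene lacks an LXR element. No 2 matches in these 5 stretches shared a base, and a match describes letters only.

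All 9 probes were well above background on all 4 arrays, as called by the scanner software, and no spot on any array was saturated. Signals below are the processed brightness of the spot, and a difference is on the log2 scale after each array was scaled by the 75th percentile of its signals. That percentile was lower on the MG132 array (1448) than on the other arrays (1603 to 1669), so a signal there can be below that of DMSO while the scaled difference is above 0. Reading error was taken from probes printed 10 times, and it amounts to an SD of 0.085 on the log2 scale for a difference between 2 readings. It comes from the median of these probes and holds no variation between cultures or between arrays. A difference larger than it is therefore not shown to be a change. Without a second array per condition, no difference could be tested, the groups cannot be said to overlap or not, and lower mRNA per cell cannot be told apart from fewer cells that express the gene. The threshold for counting a gene was a 2-fold difference, which is 1 on the log2 scale. Macrophage markers were present as the cell label calls for, with 6 of 8 well above background on all arrays, including *Csf1r*, *Cd14* and *Adgre1*, while *Mrc1* was not above background and *Cd68* had no named probe. The summed signal of these markers was 353416 under DMSO, 272107 under MG132, 307175 under epoxomicin and 332783 under ONX0914. *Csf1r* made up most of it, and *Lyz2*, the macrophage lysozyme gene, differed from DMSO by -0.60 under MG132, -1.01 under epoxomicin and 0.14 under ONX0914. B-cell and hepatocyte markers were not above background on any array. Of 4 T-cell markers, *Cd4* and *Cd3e* were above background on all arrays, with sums over the list of 4482 to 5322, and of 4 epithelial and fibroblast markers, *Krt8* was above background with MG132 and epoxomicin, where the list summed to 58.3 and 151, against 22.9 under DMSO and 27.2 under ONX0914. The part of these markers in the differences below was not tested. Differences of reference genes were -0.20, -0.17 and -0.03 for *Hprt*, -0.17, -0.28 and -0.14 for *Actb* with MG132, epoxomicin and ONX0914, in that order, and -0.35 to 0.17 over the 7 probes of *Gapdh*.

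Of the 8 genes, 5 were above DMSO with epoxomicin and below it with ONX0914 (*Hmgcs1*, *Insig1*, *Idi1*, *Abca1* and *Abcg1*), as were 1360 of 12730 genes measured on every array, and *Hmgcs1* and *Insig1* had the widest differences. Both differences use the DMSO array. With MG132, none of the 8 genes was 2-fold higher or lower, against 7.24% of all genes compared that were higher and 3.68% that were lower. With epoxomicin, 1 gene, *Insig1*, was 2-fold higher and none was lower, against 8.48% and 4.4% of all genes. With ONX0914, 1 gene, *Hmgcs1*, was 2-fold lower and none was higher, against 1.4% and 3.27% of all genes. Among 8 genes, 1 gene is already a larger share than any of these, so counts of 0 or 1 are not read as a result about the set. Differences were larger than the reading error for 6 of the 8 genes with MG132, for all 8 under epoxomicin and for 7 under ONX0914, beside 85.1%, 86.4% and 76.3% of all genes. The medians of the 8 genes were 0.01 under MG132, 0.17 under epoxomicin and -0.27 under ONX0914, beside -0.02, -0.04 and -0.01 over all genes. With ONX0914, 7 of the 8 differences were below 0, while 50.9% of all genes were below 0.

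**Figure D1:**
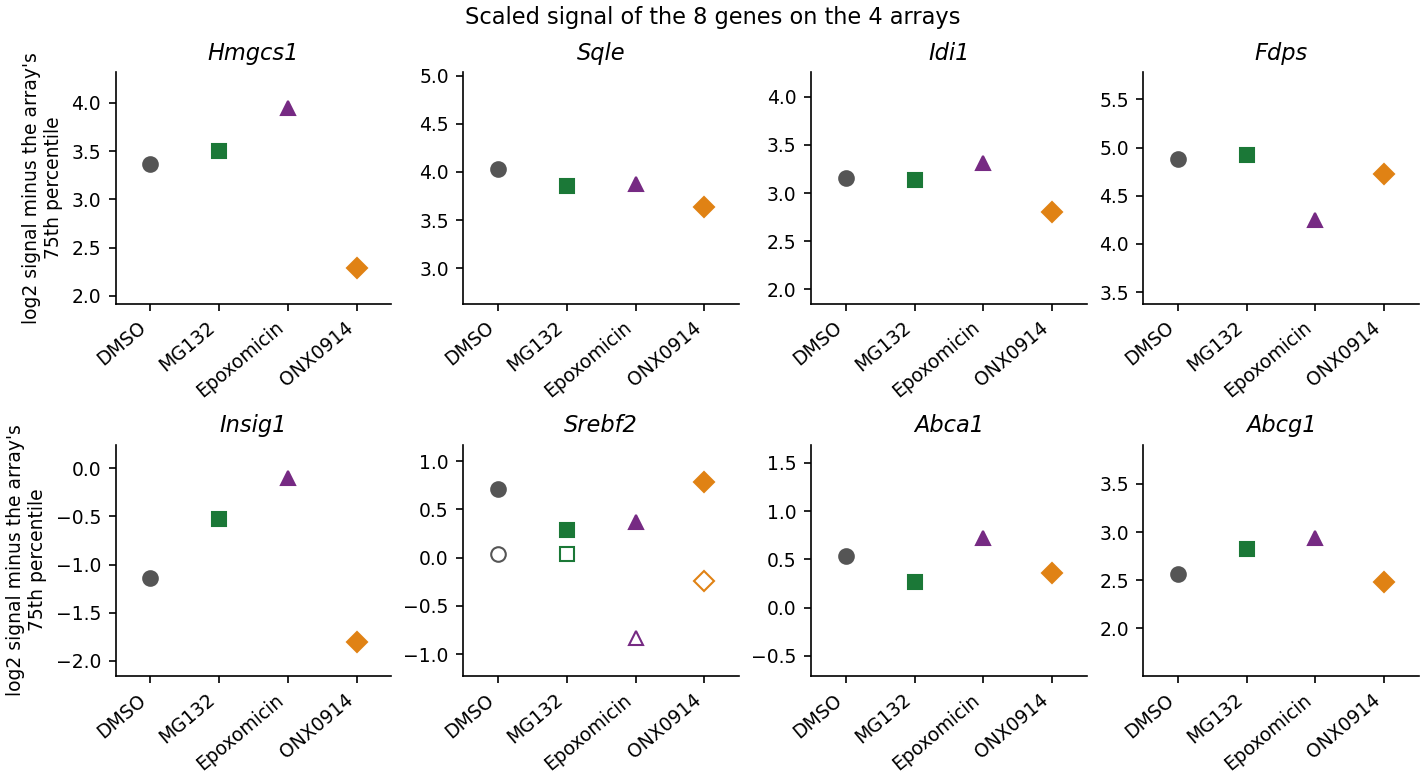
Scaled signal (log2 of the processed signal minus the 75th percentile of the array) of each of the 8 genes on the 4 arrays, with 1 point per array and every panel spanning the same range of log2 units. Open points are the second probe of *Srebf2*. *Hmgcs1* and *Insig1* have their highest point with epoxomicin and their lowest with ONX0914, whereas *Fdps* is lowest with epoxomicin.

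The first enzyme, HMG-CoA synthase 1, condenses acetyl-CoA with acetoacetyl-CoA and is encoded by *Hmgcs1* (NM_145942). Its signal was 17028 under DMSO, 16465 under MG132, 25786 under epoxomicin and 7829 under ONX0914. The ONX0914 array was thus by far the lowest, the epoxomicin array the highest, and the DMSO and MG132 arrays were close together. On the scaled log2 scale the difference from DMSO was 0.14 under MG132, 0.58 under epoxomicin (1.49-fold higher) and -1.08 under ONX0914 (2.12-fold lower). The value with MG132 was not much larger than the reading error and turned to -0.05 without scaling. With ONX0914, *Hmgcs1* held rank 161 from the lowest of 13791 genes, whereas with epoxomicin 83.3% of genes lay below it. The 2-fold call with ONX0914 was lost when background was corrected by normexp, a model of spot and background brightness, which gave -0.91.

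Isopentenyl-diphosphate isomerase, encoded by *Idi1* (NM_145360), interconverts the 5-carbon building blocks that follow mevalonate. Signals of *Idi1* were 14640 under DMSO, 12748 under MG132, 16531 under epoxomicin and 11157 under ONX0914. As for *Hmgcs1*, the epoxomicin array was highest and the ONX0914 array lowest, over a narrower range. Differences from DMSO were -0.01, 0.16 and -0.35 under MG132, epoxomicin and ONX0914, the last a 1.28-fold lower value. The MG132 difference was within the reading error.

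Farnesyl-diphosphate synthase, encoded by *Fdps* (NM_134469), joins these units to the precursor of sterols and of prenyl groups on proteins. The signal of *Fdps* was 48428 under DMSO, 43838 under MG132, 31613 under epoxomicin and 42269 under ONX0914. Here the epoxomicin array was the lowest, unlike for the other synthesis genes of the set. The difference from DMSO was -0.63 under epoxomicin, a 1.55-fold lower value, against 0.04 under MG132 and -0.16 under ONX0914. The ONX0914 value became 0.00 under normexp.

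Squalene epoxidase, encoded by *Sqle* (NM_009270), catalyzes the first oxygen-dependent step toward sterols. Signals of *Sqle* were 26897 under DMSO, 20883 under MG132, 24544 under epoxomicin and 19968 under ONX0914. All inhibitor arrays were below DMSO, and the ONX0914 array was again the lowest. Differences were -0.18 under MG132, -0.15 under epoxomicin and -0.39 under ONX0914 (1.31-fold lower). With ONX0914, 11.5% of all genes lay below *Sqle* and 13.4% below *Idi1*.

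*Insig1* (NM_153526) encodes the sterol-sensing retention protein described above and is itself a target of SREBP-2. Its signal was 746 under DMSO, 1006 under MG132, 1550 under epoxomicin and 459 under ONX0914. MG132 and epoxomicin were above DMSO and ONX0914 was below it. The differences were 0.62 under MG132 (1.53-fold higher), 1.04 under epoxomicin (2.05-fold higher) and -0.66 under ONX0914 (1.58-fold lower). Of all genes compared, 91.9% lay below *Insig1* with epoxomicin and 3.92% with ONX0914. The 2-fold call with epoxomicin was narrow: normexp gave 0.73, normexp fitted without outlier spots 0.89 and a shift of each array to its median 0.96.

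*Srebf2* (NM_033218) encodes the precursor of SREBP-2, and its 2 probes differed. The brighter probe had signals of 2691 under DMSO, 1773 under MG132, 2157 under epoxomicin and 2764 under ONX0914. The DMSO and ONX0914 arrays were high and the other arrays low, with differences of -0.42, -0.34 and 0.08 for MG132, epoxomicin and ONX0914. The second probe had signals of 1687 under DMSO, 1484 under MG132, 934 under epoxomicin and 1357 under ONX0914. On this probe the MG132 array matched DMSO (0.00), while the difference was -0.87 under epoxomicin and -0.27 under ONX0914. Both probes placed the epoxomicin array below DMSO, and they disagreed on MG132 and on the sign with ONX0914. Between probes of one gene the median range was 0.16 under MG132, 0.17 under epoxomicin and 0.15 under ONX0914 over 3245 genes with 2 or more probes, and the *Srebf2* probes were wider apart than that in each comparison.

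ABCA1, encoded by *Abca1* (NM_013454), loads cholesterol and phospholipid onto lipid-poor apolipoprotein A-I. Signals of *Abca1* were 2388 under DMSO, 1738 under MG132, 2751 under epoxomicin and 2052 under ONX0914. The epoxomicin array was above DMSO and the other inhibitor arrays below it, with differences of -0.27, 0.18 and -0.18 for MG132, epoxomicin and ONX0914. ABCG1, encoded by *Abcg1* (NM_009593), exports cholesterol to formed lipoprotein particles. Its signal was 9762 under DMSO, 10248 under MG132, 12776 under epoxomicin and 8943 under ONX0914. MG132 and epoxomicin were above DMSO, by 0.26 and 0.37, and ONX0914 was 0.09 below it, which is at the reading error. Neither transporter gene was more than 1.29-fold from DMSO with any inhibitor.

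**Figure D2:**
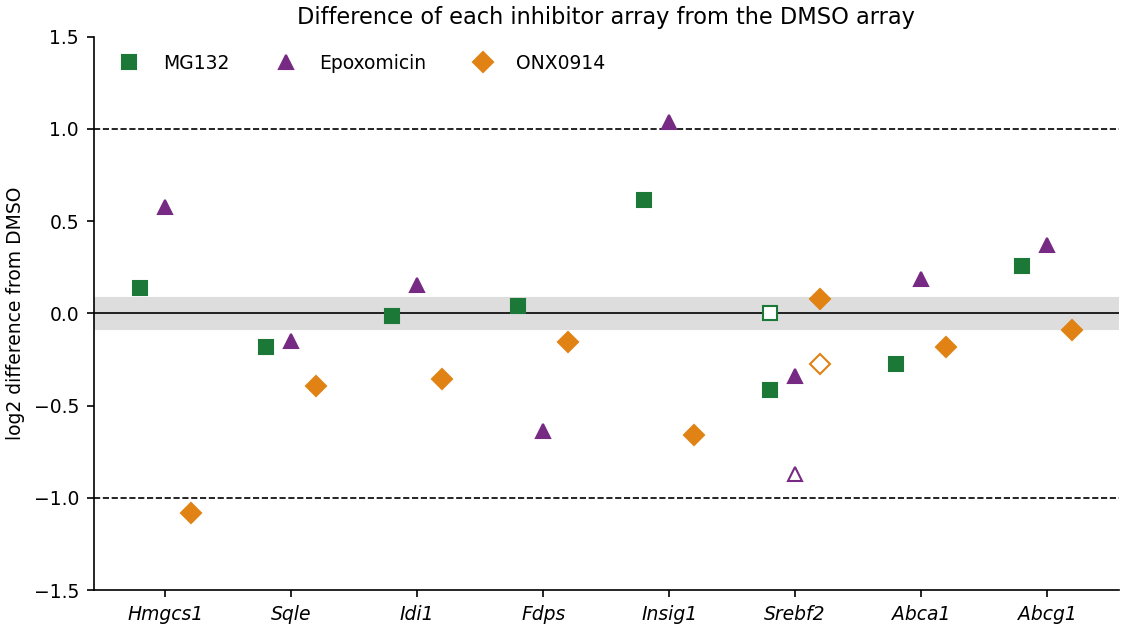
Difference of each inhibitor array from the DMSO array (log2, scaled) for the 8 genes, with 1 point per inhibitor and open points for the second probe of *Srebf2*. The grey band is the reading error (0.085 on either side of 0) and the dashed lines mark a 2-fold difference, which *Insig1* passed with epoxomicin and *Hmgcs1* with ONX0914.

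Each of the 3 pairs of inhibitors was compared at the same dose and time, with 1 array on either side and hence no test and no interval. Between epoxomicin and ONX0914, *Insig1* was 3.24-fold and *Hmgcs1* 3.16-fold higher with epoxomicin, at 1.70 and 1.66 on the log2 scale. These were the 2 genes of the 8 that were 2-fold higher, with none lower, against 4.42% and 1.55% of all genes compared. *Insig1* held rank 170 and *Hmgcs1* rank 179 from the highest of 13792 genes. The same 2 genes were 2-fold higher with MG132 than with ONX0914, with 2.42-fold for *Insig1* and 2.33-fold for *Hmgcs1*, and again none was lower, against 3.03% and 1.08% of all genes. No 2-fold call in these comparisons with ONX0914 changed under any of 12 other ways of processing the signals, in which *Insig1* ranged from 1.51 to 1.76 for epoxomicin and from 1.13 to 1.30 for MG132, and *Hmgcs1* from 1.59 to 1.72 and from 1.07 to 1.26. Some of these ways could not change *Insig1* or *Hmgcs1*, which have 1 probe each, well above background on all arrays. These were the mean over probes and the settings that concern genes not above background. Keeping outlier spots also left their values the same. Both comparisons use the ONX0914 array and neither uses the DMSO array.

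The remaining genes were spread more narrowly between these inhibitors. *Idi1* (0.51), *Abcg1* (0.46), *Abca1* (0.36) and *Sqle* (0.24) were higher with epoxomicin than with ONX0914, while *Fdps* (-0.48) and *Srebf2* (-0.42) were lower. Between MG132 and ONX0914, *Abcg1* (0.34), *Idi1* (0.34), *Sqle* (0.21) and *Fdps* (0.20) were higher with MG132, and *Abca1* (-0.09) and *Srebf2* (-0.50) lower. The *Srebf2* value was 0.28 on its second probe. Between epoxomicin and MG132, none of the 8 genes was 2-fold apart, against 0.814% of all genes higher and 0.704% lower with epoxomicin. By the probe that stands for each gene, *Fdps* was lowest in that comparison at -0.68, or 1.6-fold lower with epoxomicin, and 1.47% of all genes lay below it. The second probe of *Srebf2* was lower still, at -0.87. *Abca1* (0.46), *Hmgcs1* (0.44) and *Insig1* (0.42) were higher with epoxomicin than with MG132.

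**Figure D3:**
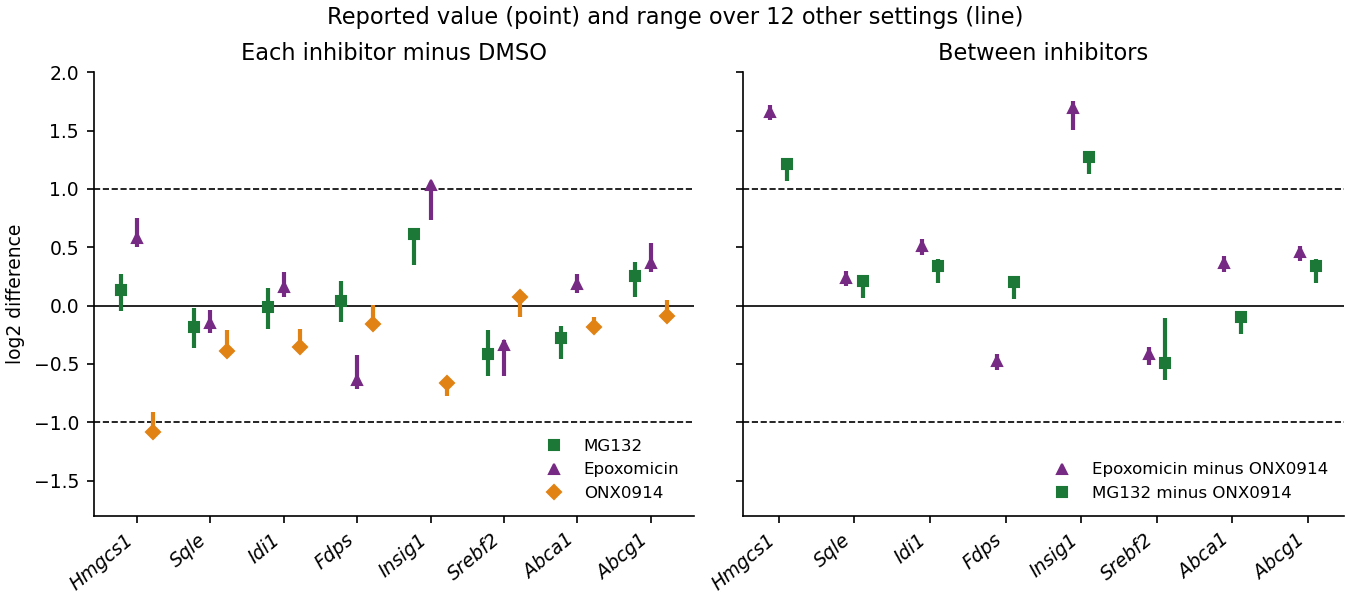
Log2 difference of the 8 genes as reported (points) and the range over 12 other ways of processing the signals (vertical lines), for each inhibitor against DMSO (left) and for epoxomicin and MG132 against ONX0914 (right). Dashed lines mark a 2-fold difference. The *Insig1* and *Hmgcs1* ranges stay above the upper dashed line on the right, and those of *Insig1* with epoxomicin and of *Hmgcs1* with ONX0914 cross a dashed line on the left.

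The 8 genes were set beside the rest of the synthesis pathway, a list of 21 genes of sterol and isoprenoid synthesis to which 4 of them belong. Of the 21 genes, 20 could be compared. *Hmgcs1* with ONX0914 was the only one at 2-fold from DMSO with any inhibitor. With ONX0914, 16 of the 20 genes lay below DMSO, 15 of them by more than the reading error, with a median of -0.20, beside 50.9% of all genes below 0 and a median of -0.01 over them. With MG132 and with epoxomicin, 9 genes lay above and 11 below DMSO, with medians of -0.03 and -0.06.

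Genes above DMSO with both MG132 and epoxomicin included enzymes of the sterol branch. *Cyp51*, the lanosterol demethylase gene, differed by 0.60, 0.90 and 0.29 under MG132, epoxomicin and ONX0914, and *Fdft1*, the squalene synthase gene, by 0.53, 0.59 and -0.04 on its brighter probe and 0.02, -0.18 and -0.46 on the other. Furthest below DMSO with both MG132 and epoxomicin were *Dhcr7* (-0.70 and -0.72), *Tm7sf2* (-0.66 and -0.60), *Mvk* (-0.62 and -0.53), *Ebp* (-0.59 and -0.64) and *Acat2* (-0.47 and -0.72). *Mvd* (-0.29 and -0.43), *Lss* (-0.16 and -0.32) and *Sqle* (-0.18 and -0.15) were below DMSO with both by less. *Msmo1* (-0.14 and -0.05) was within the reading error with epoxomicin, and *Pmvk* (-0.05 and -0.07) with both. *Dhcr7* and *Ebp* encode late sterol enzymes and *Mvk* encodes mevalonate kinase. *Hmgcs1*, at 0.14 and 0.58, lay on the side of the first group, while *Fdps* lay below DMSO with epoxomicin but not with MG132. On the ONX0914 array, *Hmgcs1* was followed by *Acat2* (-0.58), *Msmo1* (-0.49), *Tm7sf2* (-0.43, and -0.09 on its dimmer probe), *Sqle* (-0.39) and *Idi1* (-0.35).

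**Figure D4:**
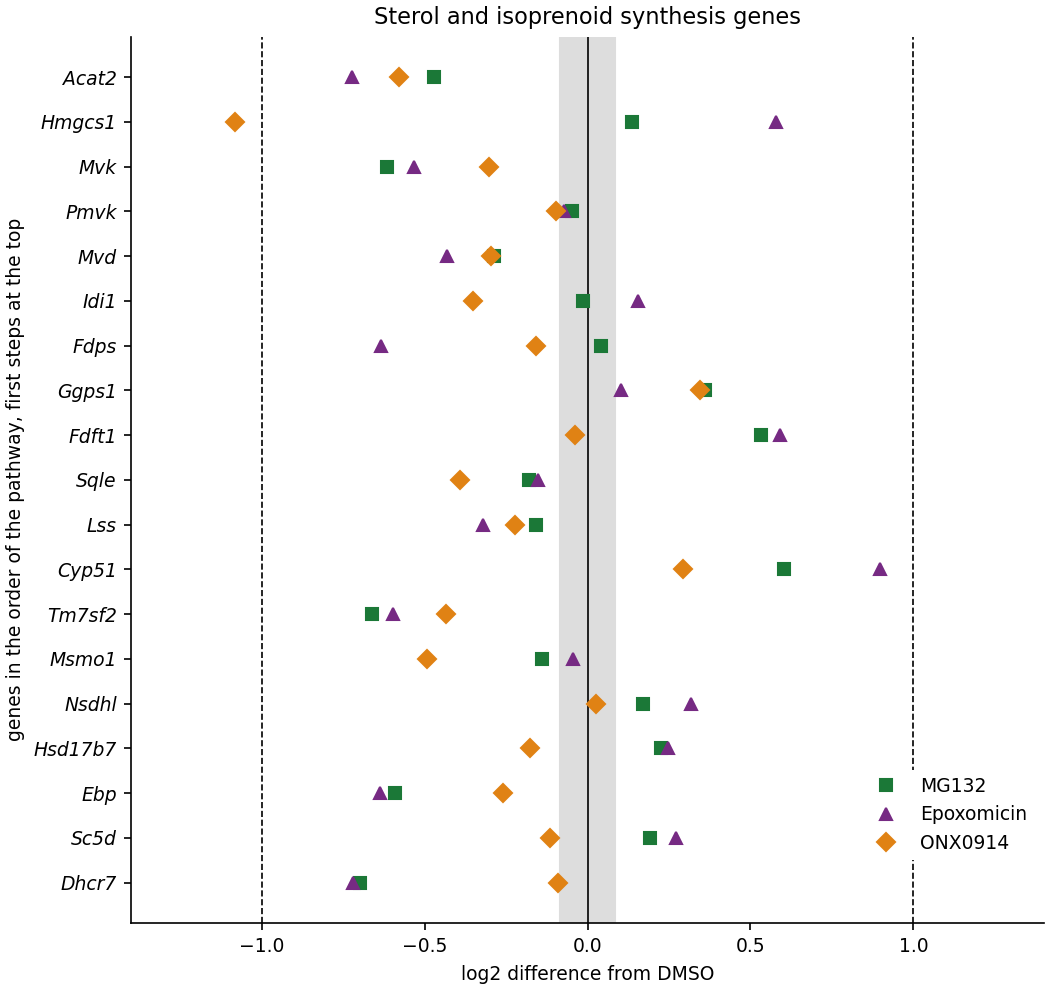
Log2 difference from DMSO of 19 genes of sterol and isoprenoid synthesis in the order of the pathway, with 1 point per inhibitor. The grey band is the reading error and dashed lines mark 2-fold. Most ONX0914 points lie left of 0, with *Hmgcs1* beyond the dashed line, while MG132 and epoxomicin points lie on both sides and close to each other at most steps.

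In a list of 11 genes drawn up for SREBP control, which holds *Srebf1* and *Srebf2* themselves, *Insig1* was 1 of 2 that were 2-fold higher with epoxomicin, against 8.48% of all genes. The other was *Trib1*, which encodes a pseudokinase adaptor of a ubiquitin ligase, at 1.21, 1.48 and 0.81 under MG132, epoxomicin and ONX0914. Whether *Trib1* acts on SREBP in these cells was not tested. *Trib1* was above DMSO with ONX0914, whereas *Insig1* was below it. *Insig2*, the second retention gene, lay below DMSO with all inhibitors, at -0.46, -0.35 and -0.23, and *Scap* did so at -0.26, -0.05 and -0.14. No gene of this list was 2-fold lower.

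By the brightest probe of each gene, none of 13 genes of cholesterol uptake and trafficking that could be compared was 2-fold from DMSO. Most were higher on the ONX0914 array, where 9 lay above DMSO and 4 below, with a median of 0.10. *Mylip* and *Stard4*, described next, were the lowest of the 13 on that array. For MG132, 4 genes lay above and 9 below (median -0.16), and for epoxomicin 6 above and 7 below (median -0.06). *Mylip*, which encodes a ubiquitin ligase induced by LXR, lay below DMSO, at -0.57, -0.06 and -0.80 for MG132, epoxomicin and ONX0914. Its dimmer probe gave -0.94, -0.77 and -1.33, which is past 2-fold with ONX0914. *Stard4*, a sterol transfer protein gene, differed by 0.17, 0.12 and -0.52 on its brighter probe and by 0.29, 0.25 and -0.03 on the other.

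Beside *Abca1* and *Abcg1*, 11 other genes of efflux, esterification and LXR signalling were compared. *Lpcat3*, a phospholipid-remodelling gene induced by LXR, was the only gene at 2-fold, with -0.91, -1.08 and -0.24 for MG132, epoxomicin and ONX0914. *Soat1*, which encodes the enzyme that esterifies cholesterol for storage, lay below DMSO, at -0.58, -0.92 and -0.35. *Nr1h3*, the gene of LXRα, was above DMSO by 0.72, 0.65 and 0.36. *Abca1* and *Abcg1*, with their narrow differences, followed neither of these patterns.

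Over the 4 lists named so far and a list of fatty acid synthesis, 66 of 72 genes were compared. At 2-fold, 2 were higher and none lower with MG132, 3 higher and 1 lower with epoxomicin, and 1 higher and 1 lower with ONX0914. These are fewer genes than the shares over all genes given above for MG132 and epoxomicin.

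The opposite signs of *Hmgcs1* and *Insig1* with epoxomicin and ONX0914 were set beside all 12730 genes measured on every array. Both differences use the DMSO array, so its reading enters each of them. From 0.5 above DMSO with epoxomicin and 0.5 below it with ONX0914, 21 genes were found, *Hmgcs1* and *Insig1* among them, and the other 6 genes of the set were not. The search was made because of the values of *Hmgcs1* and *Insig1*, so their place among the 21 was known beforehand. In the reverse direction there were 4 genes, *Mir22hg*, *Prr22*, *Prr7* and *Scd4*, which were named after their values were seen. At 2-fold in both, the same search left 1 gene, *Tcim*, also named after its values were seen, and neither *Hmgcs1* nor *Insig1*.

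**Figure D5:**
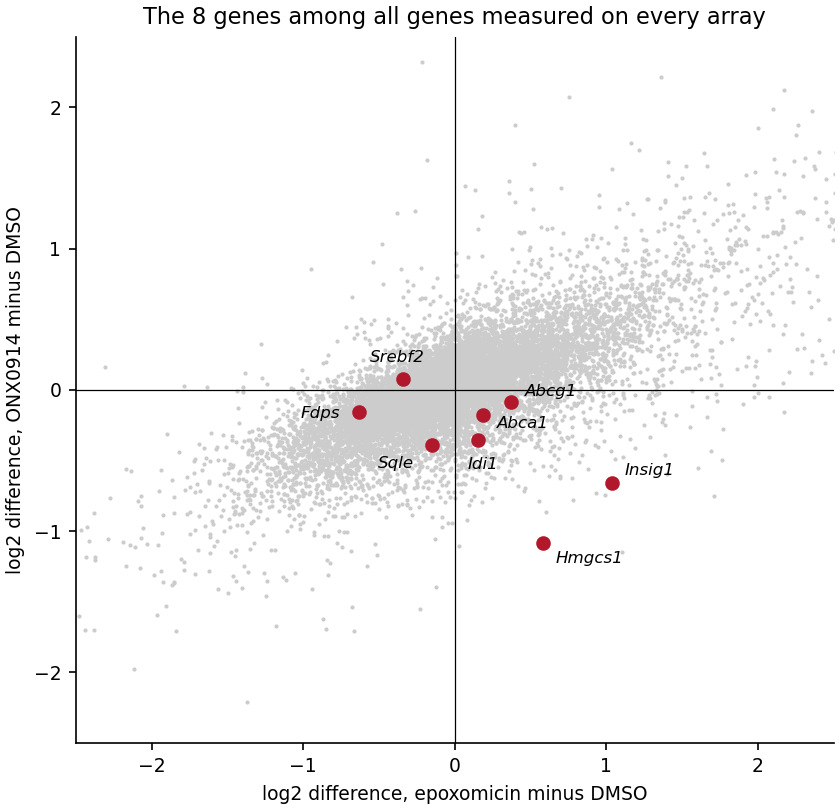
Log2 difference from DMSO with ONX0914 (vertical axis) against that with epoxomicin (horizontal axis) for 12730 genes measured on every array (grey), with the 8 genes in red. The axes share the DMSO array and end at 2.5 on either side, which leaves 166 genes outside. *Hmgcs1* and *Insig1* lie at the lower right, where grey points are few, and the other 6 genes lie within the grey cloud.

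Genes with the nearest pattern were found by the Euclidean distance over the differences from DMSO with the 3 inhibitors, among 12729 other genes measured on all arrays. Nearest to *Hmgcs1* was *Ptpn22*, a leukocyte tyrosine phosphatase gene, at a distance of 0.333 with differences of 0.39, 0.60 and -0.86 for MG132, epoxomicin and ONX0914. *P2ry10* (0.419) and *Fgf6* (0.511) were next. Nearest to *Insig1* were *F730043M19Rik* (0.177), *P2ry10b* (0.203) and *Susd4* (0.213), and *F730043M19Rik* differed by 0.59, 1.06 and -0.49. None of these 6 genes is on a list of cholesterol genes used here.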

How the data were processed

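RNA of J774.1 cells was measured on 4 single-color (Cy3) arrays, 1 each for DMSO, MG132, epoxomicin and ONX0914, grouped by sample title. Per the file headers, Feature Extraction 10.7.1.1 produced the deposited scanner tables, which give the processed intensity of each spot, background-subtracted and not scaled between arrays, and 0 or 1 calls per spot as other values. A deposited table of the whole series, with 39483 log2 entries, was an alternative. Its columns were correlated with the scaled scanner values of their own array, after the median of each probe over the 4 arrays was subtracted from the latter. Pearson r was at least 0.9996 across 22418 probes well above background on all arrays. The medians of the columns were -0.05, 0.02, -0.02 and 0.01 for DMSO, MG132, epoxomicin and ONX0914. A human array is named in the Methods, but the headers are those of a mouse array with mm9 coordinates, which were not used.

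Control and outlier spots (159 to 194 per array) were left out. The log2 of each intensity was taken, the 75th percentile over non-control spots of its array subtracted, and spots of one probe averaged. Of 39429 probes, 26581 (67.4%) were named by transcript accession through RefSeq (GRCm38.p6). The probe with the highest mean stood for a gene. A gene was compared when well above background, per the software, on at least 1 of the arrays compared, with a bound in place of a dim signal, and was called at 2-fold. The reading error is the largest median SD between spots (0.0602) times the square root of 2. The number of arrays limits the precision, and no test was run.

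The 8 genes and all lists were chosen with earlier results of these data known. Named are the 8 genes, list genes at 2-fold or in the mevalonate and sterol steps, the 3 genes nearest to each of the 8 called against DMSO, and *Hprt*, *Actb* and *Gapdh*. Results for some list genes are not reported here. Some list genes were named beside these for their role, after their values were seen. Alternatives were normexp (offset 50) with and without outlier spots in the fit, quantile normalization, a median shift, percentiles over detected probes or over probes, no scaling, the value table, the mean over probes, signals in place of bounds, outlier spots kept, genes above background on all arrays, and 1.5-fold. Normexp without outlier spots and the percentile over probes were added after seeing the data. In simulated data, 200 of 200 changed genes were called in each of the 3 comparisons with DMSO (13711 genes each). All planted changes were well past the threshold, and the noise was no larger than the SD between spots. Recovery of all was therefore certain, which checks the calculation only and says nothing about calls close to the threshold, such as those of *Insig1* and *Hmgcs1*. Python 3.11.15 (numpy 2.4.6, pandas 2.3.3, matplotlib 3.10.9) and R 4.3.3 (limma 3.58.1) were used.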

Additional observations from a re-analysis of the deposited data

How the results depend on the processing

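No paired analysis was possible because each condition has 1 array. Over 12 alternatives, 503 values of the 8 genes moved by less than the reading error and 73 by more, and no 2-fold difference changed sign. The 503 include values that could not move. Signals in place of bounds and genes above background on all arrays could change none of the 8 genes. The mean over probes could change only *Srebf2*. Signs turned without scaling for *Hmgcs1* with MG132 (-0.05), under normexp for *Abcg1* (0.05) and *Fdps* (0.00) with ONX0914, and with the mean over probes for *Srebf2* with ONX0914 (-0.10). With MG132, *Idi1* ranged from -0.20 to 0.15 and *Fdps* from -0.14 to 0.21, and between epoxomicin and MG132, *Sqle* reached -0.03 and *Srebf2* -0.40.

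Of the counts, 287 stayed within 1.5 times and 25 did not. At 1.5-fold, 1 of the 8 genes was higher with MG132, 1 lower with epoxomicin, 2 lower with ONX0914 and 1 lower with epoxomicin than with MG132. Over the 66 list genes at 1.5-fold, 7 were higher and 6 lower with MG132, 12 and 10 under epoxomicin, 2 and 3 under ONX0914, 10 and 5 between epoxomicin and ONX0914, and 1 and 1 between epoxomicin and MG132, and 3 were lower with MG132 than with ONX0914. No share of all genes was taken at 1.5-fold, so these counts cannot be read against one. At 2-fold, the single higher gene of the 8 with epoxomicin became 0 under normexp, under normexp fitted without outlier spots and under the median shift. The single lower gene with ONX0914 became 0 under normexp. Lower list genes with MG132 became 1 under normexp, the median shift and no scaling, those with epoxomicin 2 under normexp and the median shift, and those with ONX0914 2 with the mean over probes. The cause was not tested. Without scaling, the median of all genes was -0.20 under MG132, -0.02 under epoxomicin and -0.04 under ONX0914.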

Other observations

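Fatty acid synthesis shares its SREBP family of regulators with cholesterol synthesis, and 9 of the 12 genes listed for it could be compared. *Scd1*, *Elovl6* and *Pnpla3* were not well above background. *Me1*, which encodes malic enzyme and is also a target of Nrf2, was 2-fold higher with every inhibitor. Its signal was 2097 under DMSO, 5031 under MG132, 5564 under epoxomicin and 5126 under ONX0914, and the differences were 1.45, 1.39 and 1.33. All inhibitor arrays were close to each other and above DMSO, unlike for *Hmgcs1* and *Insig1*.

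*Fasn*, the fatty acid synthase gene, had signals of 691 under DMSO, 781 under MG132, 1117 under epoxomicin and 622 under ONX0914. It was higher than DMSO by 0.36 and 0.67 under MG132 and epoxomicin and lower by 0.11 under ONX0914, which is the order of arrays seen for *Insig1* over a narrower range. The desaturase genes *Scd2* (-0.67, -0.60 and -0.25), *Fads1* (-0.57, -0.69 and -0.16) and *Fads2* (-0.46, -0.70 and -0.04) lay below DMSO with MG132, epoxomicin and ONX0914. Medians of the 9 genes were -0.14 under MG132, -0.15 under epoxomicin and -0.10 under ONX0914.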
